A study of Mus musculus with 15 samples.

Results

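The constitutive proteasome subunit genes were followed in 2 mouse tumour lines, MC38 with added Ssbp4 and B16-F10 edited at Ssbp4. Members were the genes whose symbol is Psma, Psmb, Psmc or Psmd followed by a number, without the immunoproteasome subunits Psmb8, Psmb9 and Psmb10, and with a mean of at least 1 FPKM in both tables. FPKM counts fragments scaled to gene length and to the mapped fragments of the library, and so is a level relative to all RNA of that library. Of 39 symbols of this pattern among the 53088 gene entries found in both tables, 3 were immunoproteasome subunits and 2 were below the minimum, which left 34 members. The members comprised 14 core genes (Psma and Psmb) and 20 regulatory particle genes (Psmc and Psmd). The 2 genes outside the minimum were Psma8, an alpha subunit known from male germ cells, listed at 0 in every library, and Psmb11, the thymic beta subunit, with means of 0.0020 FPKM in MC38 and 0.0025 FPKM in B16-F10. The lowest members inside it were Psmd10 at 9.85 FPKM in MC38 and Psmd5 at 13.6 FPKM in B16-F10, so no member lay close to the minimum and all 34 were tested in both lines.

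Proteasomes degrade proteins that carry ubiquitin chains. The core particle is a barrel of stacked alpha and beta rings with the proteolytic sites of the beta subunits inside. The regulatory particle caps the barrel, with a base of ATPases that unfold substrates and a lid that removes ubiquitin. Subunits are needed in fixed proportions, and cells whose proteasomes are inhibited are known to raise many subunit genes together through the transcription factor Nfe2l1, also called NRF1. In tumour cells proteasomes also make most of the peptides that MHC class I molecules display.

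MC38 is a colon adenocarcinoma line, although its tissue label reads melanoma. Here 4 wild-type libraries were set against 3 from cells transduced with the retroviral vector pMSCV-IRES-EGFP carrying murine Ssbp4 cDNA, with no vector-only group named. B16-F10 is a melanoma line, and its 4 libraries labelled wild type were set against 4 libraries labelled knockout, from cells electroporated with Cas9 and a mixture of guide RNAs against Ssbp4. The protocol gives as control a guide RNA aimed at an intergenic region of chromosome 2, and neither the transduced nor the edited cells are said to be clonal. Cells of both lines were grown in culture, and no other treatment or host is named. Whether replicates are separate cultures is not stated, so the p-values measure only how these libraries vary, which may be technical.

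Each MC38 library held an estimated 31.6 to 37.7 M fragments and each B16-F10 library 31.6 to 48.1 M. Ssbp4 followed the labels, at 13.2 to 17.6 FPKM in wild-type and 461.5 to 581 FPKM in overexpressing MC38 libraries, and at 32.4 to 37.4 FPKM in wild-type and 19.0 to 24.4 FPKM in knockout B16-F10 libraries. A mean of 64.1% of the wild-type mRNA was left in the knockout, and mRNA does not gauge the protein lost. All 10 melanocytic markers were at 1 FPKM or more in B16-F10, with summed levels of 13060 to 17090 FPKM in wild-type and 16740 to 17270 FPKM in knockout libraries. Of 10 epithelial markers 2 (Krt8 and Krt18) reached 1 FPKM in wild-type MC38 and 1 (Krt8) in overexpressing MC38, with summed levels of 6.80 to 9.11 and 9.07 to 10.75 FPKM. Without the highest gene of each group (Krt18 and Krt8) the sums were 4.16 to 5.57 and 0.095 to 0.421 FPKM. Krt8 had means of 3.22 FPKM in wild type and 9.45 FPKM in overexpressing cells, Krt18 of 3.23 and 0.061 FPKM, and Epcam of 0.846 FPKM (0.658 to 1.05) and 0. Cdx2 was listed at 0 in both MC38 groups, and the other 6 had means of at most 0.306 FPKM in either group. The summed level of 8 fibroblast markers was 180.5 to 186.6 FPKM in wild-type and 655.9 to 679.1 FPKM in overexpressing MC38, with 3 and 4 of them at 1 FPKM or more, Thy1 listed at 0 in wild type and none listed at 0 in overexpressing cells. In B16-F10 that sum was 3.33 to 4.81 and 3.63 to 6.03 FPKM, with Thy1 at 0 in both groups. Of 10 leukocyte markers 1, Cd68, reached 1 FPKM in any group, the sum was at most 4.45 FPKM, and Cd3e and Nkg7 were at 0 throughout. The 6 endothelial markers, mostly Egfl7, summed to 4.34 to 5.75 and 2.95 to 3.64 FPKM in wild-type and overexpressing MC38 and to 11.7 to 17.7 and 16.4 to 19.5 FPKM in wild-type and knockout B16-F10. The part of these marker levels in the results on proteasome genes was not tested, and in bulk RNA fewer cells of a type and less RNA per cell cannot be told apart.

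Both lines expressed all 34 genes, and levels spanned more than 10-fold within a line. In wild-type MC38 the highest mean level was that of Psmb7, the catalytic subunit with trypsin-like activity, at 285 ± 3.85 FPKM (SD, n = 4), followed by Psma7 at 281 ± 3.84 FPKM. Their ranges over the 4 libraries overlapped. In wild-type B16-F10 Psmd8, a lid subunit that joins late in lid assembly, was highest at 235 ± 45.8 FPKM (SD, n = 4), followed by Psma7 at 200 ± 22.1 FPKM, and these ranges overlapped as well. Of the core genes Psma2 had the lowest level in both lines, at 56.2 ± 1.31 FPKM in wild-type MC38 and 50.4 ± 2.93 FPKM in wild-type B16-F10.

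A group of 3 regulatory particle genes stood far below the rest in both lines. Psmd5, Psmd9 and Psmd10, the last also called gankyrin, encode chaperones that help assemble the base and are not part of the finished particle. Wild-type means were 26.2, 22.3 and 9.42 FPKM in MC38 and 13.6, 15.8 and 17.7 FPKM in B16-F10. In every one of the 15 libraries the highest of the 3 was below the lowest of the 31 structural genes. Within B16-F10 knockout library 1, for example, the highest chaperone was at 15.4 FPKM and the lowest structural gene at 43.4 FPKM. The structural members kept within a narrower band, from 52.1 (Psmd13) to 285 FPKM in wild-type MC38 and from 50.4 (Psma2) to 235 FPKM in wild-type B16-F10.

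**Figure D1:**
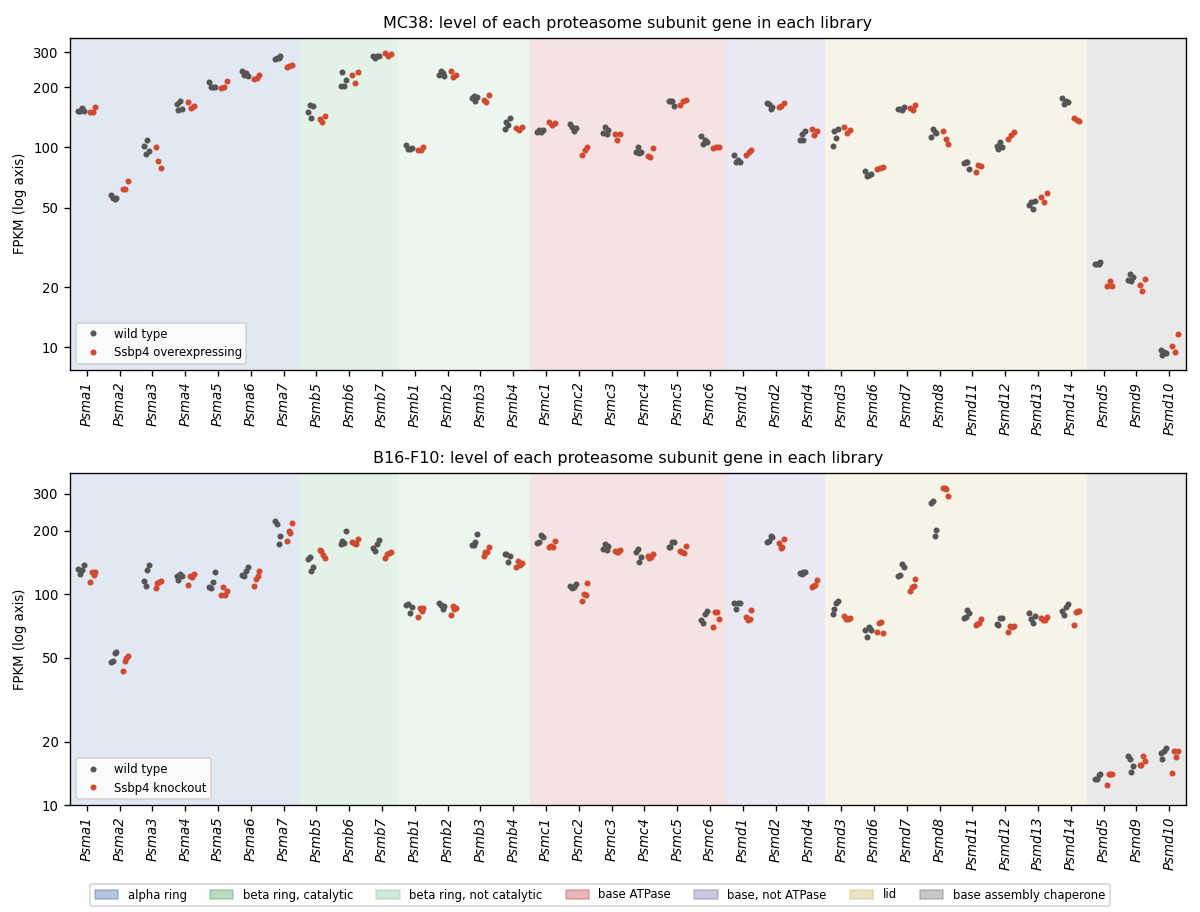
Level of each of the 34 genes in each library, in FPKM on a log axis, with MC38 above and B16-F10 below, and background colours for the position of the subunit in the particle. Grey points are wild-type libraries and red points overexpressing or knockout libraries. The assembly chaperones Psmd5, Psmd9 and Psmd10 sit below all other members in both lines, and the red and grey points of most genes overlap.

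The order of the genes was partly shared between the lines. Over the 34 genes the Spearman rho of the wild-type means was 0.668, and over the 31 structural genes it was 0.563, a description of genes that share their library and gene lengths. The tables were made separately, so a ratio between lines is only a side-by-side value. On deposited FPKM 21 of 34 genes were higher in wild-type MC38. Psmb2, a beta ring subunit without a proteolytic site, was 2.66 times as high in MC38 as in B16-F10, and the lid deubiquitinase Psmd14 was 2.01 times as high. Psmd8 was 1.98 times as high in B16-F10 as in MC38, and Psmd10 1.88 times.

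The median core level was above the median regulatory level in each library. The median core FPKM divided by the median regulatory FPKM was 1.57 ± 0.049 in wild-type and 1.62 ± 0.064 in overexpressing MC38 (SD, n = 4 and 3), and 1.45 ± 0.022 in wild-type and 1.49 ± 0.045 in knockout B16-F10 (SD, n = 4 each). The groups overlapped in both lines, from 1.505 to 1.62 against 1.55 to 1.68 and from 1.42 to 1.475 against 1.43 to 1.53. Without the chaperones the ratio was 1.47 and 1.47 in MC38 and 1.18 and 1.21 in B16-F10. Summed over genes, core divided by regulatory FPKM was 1.22 in both MC38 groups and 0.868 and 0.846 in wild-type and knockout B16-F10. The whole set summed to 4516 ± 25.9 FPKM in wild-type and 4433 ± 82.5 FPKM in overexpressing MC38, which is 0.893% of the table total in both groups. In B16-F10 the sum was 4006 ± 64.8 FPKM in wild-type and 3876 ± 96.3 FPKM in knockout libraries, or 0.807% and 0.790% of the total. Within either line these ranges overlapped.

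**Figure D2:**
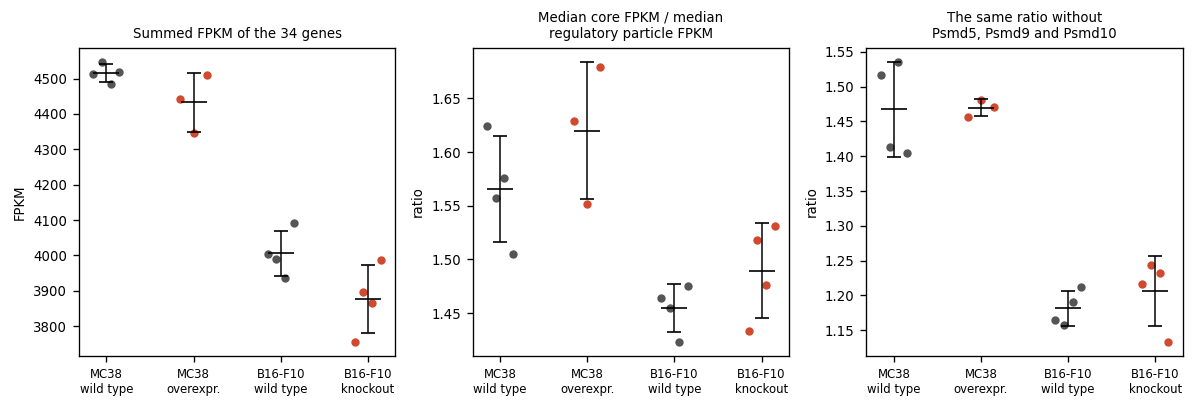
Summed FPKM of the 34 genes, the ratio of the median core level to the median regulatory level, and that ratio without the chaperones, 1 point per library with group mean and SD (n = 4, 3, 4 and 4). Vertical axes do not start at 0. Points of the altered group overlap those of wild type in each panel within each line.

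The MC38 libraries ask which of the 34 genes respond to added Ssbp4. Some members moved, in both directions and by little, and with all libraries the set as a whole did not move to one side. At an adjusted p under 0.05, 11 of 34 members (32.4%) passed, against 47.5% of the 10748 genes tested in this line, and 13 were at an unadjusted p under 0.05, against 54.3%. There were 5 higher members, beside 23.9% of tested genes called higher, and 6 lower members, beside 23.6% called lower. Fold changes were above 0 for 17 members and below 0 for 17, beside 51.7% of tested genes below 0. Median log2 fold changes on the log2(FPKM + 1) scale were -0.015 over core members, 0.0066 over regulatory members and -0.0088 over all tested genes. The median absolute log2 fold change was 0.084 over members and 0.154 over all tested genes. Scaling the libraries to a common total left 14 members below 0, turned the core median above 0 (0.011) and gave a regulatory median of 0.033. The median over all tested genes was then 0.015. Overexpressing library 3 had the highest level of the MC38 libraries in 13 of 34 members. Without it 22 members were below 0. The median over all members was then -0.025 in place of -0.0044, and that over all tested genes -0.0053.

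The largest fall among members was that of Psmc2, an ATPase of the base. Its level was 130.5, 127, 121 and 125 FPKM in the wild-type libraries and 91.5, 97.5 and 100 FPKM in the overexpressing libraries. Every overexpressing library lay below every wild-type library, and the level fell by 0.38 on the log2 scale (SE 0.04, adjusted p = 3.41e-05). Psmd14, the metalloprotease of the lid that cuts ubiquitin chains off substrates, stood at 177, 164, 171 and 169 FPKM in wild-type libraries and at 141, 137 and 135 FPKM in overexpressing libraries. It fell without overlap, by 0.30 on the log2 scale (SE 0.03, adjusted p = 6.48e-05). The chaperone Psmd5, which is known to hold Psmc2 while the base is assembled, was at 26.0, 26.0, 26.2 and 26.7 FPKM in wild type and at 20.3, 21.4 and 20.3 FPKM in overexpressing cells. It fell by 0.33 on the log2 scale (SE 0.04, adjusted p = 6.13e-05), again without overlap. The alpha ring subunit Psma7 stood at 277.5, 280, 281.5 and 286.5 FPKM in wild type and at 253, 256 and 259 FPKM in overexpressing cells. This smaller change, -0.14 (SE 0.03, adjusted p = 0.00356), also left a gap between the groups.

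Rises were smaller than the leading falls. Psma2, the least abundant core gene, was at 58.1, 56.0, 55.1 and 55.6 FPKM in wild-type libraries and at 61.7, 62.3 and 67.9 FPKM in overexpressing libraries, a rise of 0.18 on the log2 scale (SE 0.04, adjusted p = 0.00441). Overexpressing library 3 was the highest, and all 3 lay above wild type. Psmd12, a scaffold subunit of the lid, had 102, 98.4, 106 and 100.4 FPKM in wild type against 110.0, 115 and 119 FPKM, a rise of 0.17 (SE 0.04, adjusted p = 0.00527) without overlap. Psmc1, the ATPase that neighbours Psmc2 in the base ring, had 119, 122, 120 and 123 FPKM in wild type against 134, 130.0 and 133 FPKM, a rise of 0.13 (SE 0.03, adjusted p = 0.00523) without overlap. The neighbouring ATPases Psmc1 and Psmc2 thus moved in opposite directions. The Psmc1 call was lost when libraries were blocked by replicate number (adjusted p = 0.0604).

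These 7 genes passed with all libraries and whichever library was left out, whereas the other 4 passing members did not. Psmb5, the chymotrypsin-like catalytic subunit and main target of proteasome inhibitors, stood at 151, 163, 140 and 161 FPKM in wild type and at 138.5, 133 and 144 FPKM in overexpressing cells. Its groups overlapped at wild-type library 3, and its call at -0.15 (adjusted p = 0.0428) was lost without overexpressing library 1 (0.0945) or 2 (0.147) or wild-type library 1 (0.0528), 2 (0.0977) or 4 (0.104). The ATPase Psmc6 fell by 0.11, from 104 to 114 FPKM to 99.2 to 101 FPKM (adjusted p = 0.0285). That call was lost without any 1 of 5 libraries, with adjusted p = 0.0545 without wild-type library 1, 0.0606 without wild-type library 3, and 0.0885, 0.0618 and 0.0709 without overexpressing libraries 1, 2 and 3. Psmd1, the large scaffold of the base, rose by 0.12, from 84.5 to 91.9 FPKM to 91.6 to 96.7 FPKM, with a slight overlap (adjusted p = 0.0299). Its call was lost without overexpressing library 2 (0.0835) or 3 (0.111) or wild-type library 2 (0.0627), 3 (0.0613) or 4 (0.0752). Psmd6, a lid scaffold subunit, rose by 0.10, from 71.7 to 76.4 FPKM to 78.4 to 79.9 FPKM (adjusted p = 0.0264). Its adjusted p was 0.0583, 0.0716 and 0.0849 without overexpressing libraries 1, 2 and 3, and 0.0508, 0.0601 and 0.0538 without wild-type libraries 2, 3 and 4.

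**Figure D3:**
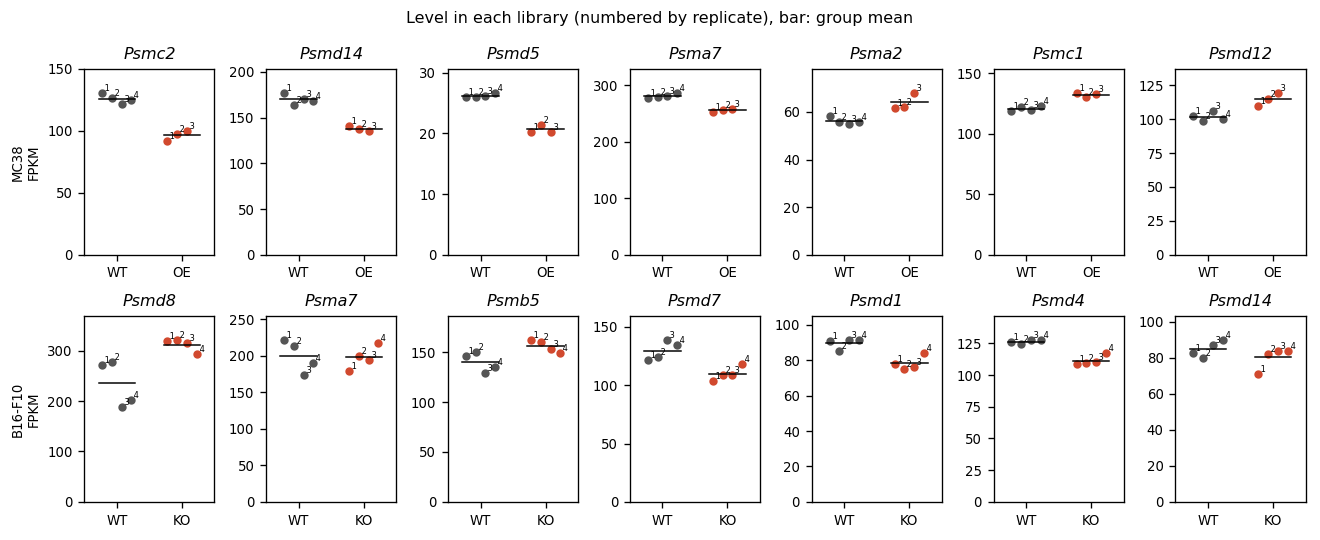
FPKM in each library, numbered by replicate, with the group mean as a bar, for 7 members in MC38 (upper row) and 7 in B16-F10 (lower row). In MC38 the overexpressing (OE) points of all 7 genes lie clear of the wild-type (WT) points. In B16-F10 wild-type libraries 3 and 4 lie below libraries 1 and 2 for Psmd8, Psma7 and Psmb5. They lie above them for Psmd7, Psmd14, Psmd1 and Psmd4. Knockout (KO) library 1 lies lowest for Psmd14.

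By position in the particle, core members had 1 rise and 2 falls among 14, and regulatory members 4 rises and 4 falls among 20. In the alpha ring 2 of 7 members passed, Psma2 and Psma7. Psma3 had overlapping groups at 92.8 to 109.5 and 79.3 to 100.3 FPKM, with adjusted p = 0.0809 and 0.00889 without overexpressing library 1. The other alpha subunits, Psma1, Psma4, Psma5 and Psma6, had fold changes between -0.059 and 0.011 that did not pass. Among the catalytic beta subunits Psmb6, which has caspase-like activity, was at 215 and 226 FPKM (log2 fold change 0.068, 95% interval -0.067 to 0.20), and Psmb7 at 285 and 292 FPKM (0.035, interval -0.034 to 0.10). None of the 4 beta subunits without a proteolytic site passed, with fold changes from -0.077 (Psmb4) to -0.012 (Psmb2). Psmb4 passed without wild-type library 1 (adjusted p = 0.0439).

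Among the 6 base ATPases 3 passed, Psmc1 higher and Psmc2 and Psmc6 lower. Psmc3 (-0.081), Psmc4 (-0.042) and Psmc5 (0.0063) did not. Of the base subunits that are not ATPases, Psmd2, a scaffold and docking site for shuttle proteins, was at 162 FPKM in both groups (0.0070, interval -0.073 to 0.087). Psmd4, a ubiquitin receptor, was at 114 and 120 FPKM (0.079, adjusted p = 0.176). In the lid 3 of 8 passed, Psmd6 and Psmd12 higher and Psmd14 lower, and Psmd7, the subunit that pairs with Psmd14, was at 156 and 158 FPKM (0.019, interval -0.052 to 0.090). Psmd3 (0.092) and Psmd11 (-0.059) did not pass, nor did Psmd13 (0.11, adjusted p = 0.0727) and Psmd8 (-0.088, adjusted p = 0.181). Psmd13 passed without overexpressing library 2 (0.0447) and Psmd8 without overexpressing library 1 (0.0346). Of the chaperones only Psmd5 passed. Psmd9 was at -0.11 (adjusted p = 0.104, and 0.0388 without overexpressing library 3) and Psmd10 at 0.13 (adjusted p = 0.132, and 0.0477 without overexpressing library 2). Groups of 4 members were higher without overlap and those of 5 members lower without overlap, beside 25.5% and 25.1% of tested genes (50.6% in either direction).

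Several falling members share a chromosome. Psmd14, Psmd5 and Psma7 lie on chromosome 2 with Psmb7 and Psmc3, and the 873 tested genes of that chromosome had a median log2 fold change of -0.11. Psmc2 lies on chromosome 5, whose 671 tested genes had a median of -0.074. The chromosome medians ranged from -0.12 (chromosome 16) to 0.11 (X). The part of these chromosome-wide shifts in the member changes was not tested.

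**Figure D4:**
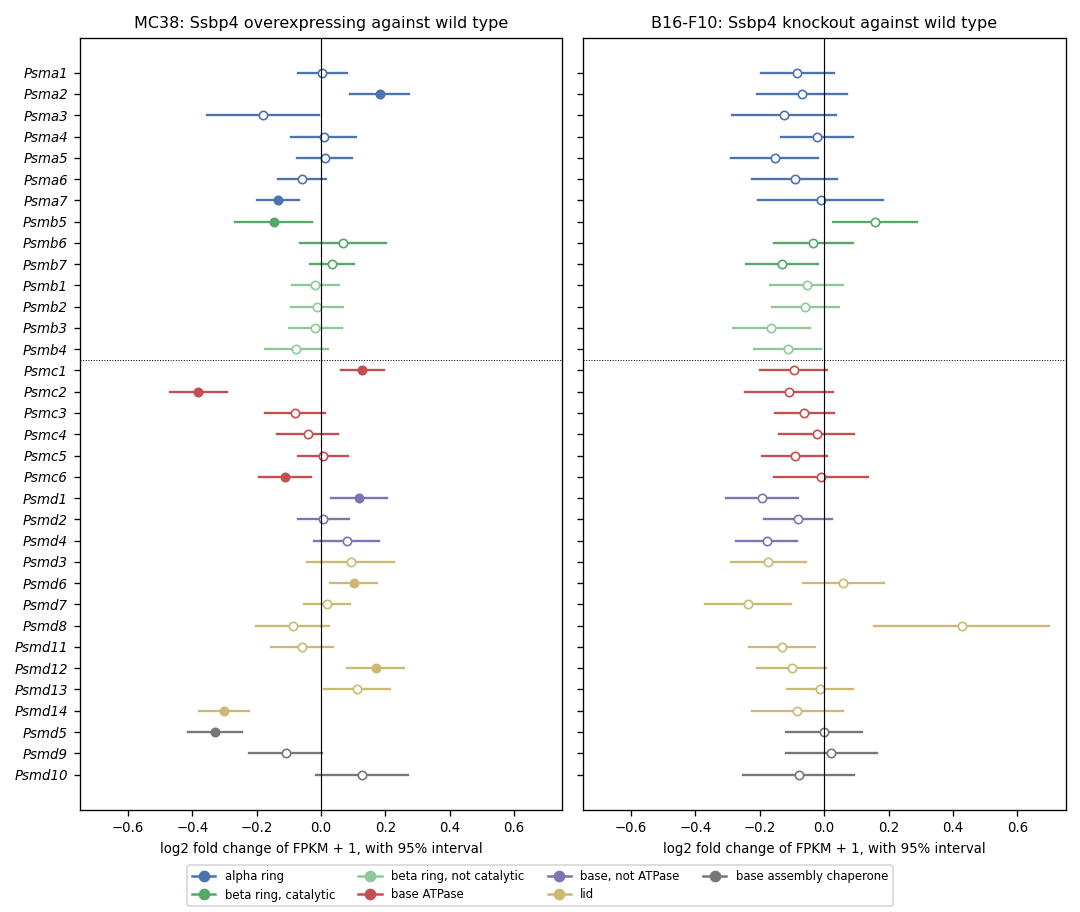
Fitted log2 fold change of FPKM + 1 with its 95% interval for each member, with MC38 overexpressing against wild type on the left and B16-F10 knockout against wild type on the right. Filled circles passed an adjusted p of 0.05 and open circles did not; the dotted line separates core genes above from regulatory genes below. In MC38 the 11 filled circles lie on both sides of 0, and in B16-F10 no circle is filled and 30 of 34 lie below 0.

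Promoters of the 7 members called in MC38 whichever library was left out are shown to set their sequences side by side. The windows are the 100 bases before the listed start in RefSeq (assembly GRCm38.p6), 5′ to 3′ on the strand of the gene. Capitals mark matches on either strand to CCGGAAG, the core read by ETS factors, to GCGCNTGCG, the centre of the site of nuclear respiratory factor 1 (a different protein from Nfe2l1), and to TGACNNNGC, the core of the antioxidant response element bound by Nfe2l1. The ATPases that moved in opposite directions, Psmc2 (chr5:21785175-21785274 and chr5:21786647-21786746, plus strand, for 2 listed starts) and Psmc1 (chr12:100110102-100110201, plus strand), are followed by Psmd12 (chr11:107479428-107479527, plus strand), Psmd14 (chr2:61711594-61711693, plus strand), Psmd5 (chr2:34870963-34871062, minus strand), Psma2 (chr13:14613142-14613241, plus strand) and Psma7 (chr2:180042465-180042564, minus strand). Psmb5 (chr14:54617996-54618095, minus strand) is added as a catalytic subunit, its call lost without any 1 of 5 libraries, whose window holds a match to the antioxidant element. The windows of the catalytic subunit Psmb6 and the chaperone Psmd9, which did not pass, each hold such a match too and are not printed.
Psmc2, first start: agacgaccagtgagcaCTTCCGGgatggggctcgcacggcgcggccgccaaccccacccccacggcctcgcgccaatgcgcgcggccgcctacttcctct
Psmc2, second start: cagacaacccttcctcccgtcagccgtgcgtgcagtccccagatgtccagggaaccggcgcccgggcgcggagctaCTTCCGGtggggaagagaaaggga
Psmc1: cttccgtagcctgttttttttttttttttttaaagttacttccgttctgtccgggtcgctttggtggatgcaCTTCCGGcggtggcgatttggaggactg
Psmd12: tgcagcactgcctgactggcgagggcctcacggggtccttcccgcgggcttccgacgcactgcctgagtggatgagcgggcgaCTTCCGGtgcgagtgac
Psmd14: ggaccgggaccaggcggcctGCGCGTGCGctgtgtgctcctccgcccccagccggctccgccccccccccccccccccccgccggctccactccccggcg
Psmd5: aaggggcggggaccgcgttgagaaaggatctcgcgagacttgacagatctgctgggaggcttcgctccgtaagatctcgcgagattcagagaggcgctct
Psma2: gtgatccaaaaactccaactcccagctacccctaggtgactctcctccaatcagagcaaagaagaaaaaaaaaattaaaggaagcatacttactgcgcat
Psma7: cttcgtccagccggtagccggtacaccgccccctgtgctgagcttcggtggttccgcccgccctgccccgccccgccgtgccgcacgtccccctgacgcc
Psmb5: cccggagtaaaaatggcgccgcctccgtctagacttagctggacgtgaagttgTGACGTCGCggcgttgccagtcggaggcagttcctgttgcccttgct

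The same ETS core stood close to the start of Psmc1 (28 bases before it), which rose, and of Psmc2 (84 and 24 bases before its starts), which fell. In Psmd12 the match began 17 bases before the start. Psmd14 had a nuclear respiratory factor 1 match beginning 80 bases before the start, Psmb5 an antioxidant element match beginning 47 bases before, and the Psmd5, Psma2 and Psma7 windows none of the 3. Psma2 had nuclear respiratory factor 1 matches further upstream, outside the printed window. Psmd12, which rose, had an antioxidant core match upstream of its printed window. So did Psmc6, called lower and not printed, upstream of the same stretch. Promoters were listed for 28 of 34 members (none for Psmb1, Psmb2, Psmb7, Psmc3, Psmd3 and Psmd7). Around each listed start 300 bases were searched. A gene with several listed starts, such as Psmc2 and Psma6, counted if any of them matched. The share of all promoters counts each start by itself. The ETS core was found in 10 of 28 (35.7%), beside 24.2% of genes tested with a listed promoter and 8.86% of all 32851 promoters. The nuclear respiratory factor 1 site was found in 6 of 28 (21.4%), beside 18% and 6.31%, and the antioxidant core in 5 of 28 (17.9%), beside 16.9% and 12.4%. Of 3 further patterns, the CCAAT box was found in 39.3% of members, beside 44.1% and 37.4%. TGANNNNGC, which includes every antioxidant core match, was found in 57.1%, beside 47.6% and 41.3%, and TGACTCAGC in 0 of 28, beside 0.451% and 0.454%. These are matches of letters in a window and say nothing on binding.

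The B16-F10 libraries ask which of the genes respond to editing of Ssbp4. No member passed, beside 2.23% of the 10902 tested genes called in either direction (1.33% higher and 0.899% lower). At an unadjusted p under 0.05 the limma fit listed 11 of 34 members, 9 lower and 2 higher, beside 21.3% of tested genes. Fold changes were below 0 for 30 of 34 members, beside 42.3% of tested genes. The median log2 fold change was -0.076 over core members and -0.082 over regulatory members, and 0.024 over all tested genes. Scaled to a common total, or without knockout library 1, 26 members were below 0, and without that library the median over all members was -0.049 in place of -0.082. With a common total the median was -0.064 over all members and 0.040 over all tested genes. Knockout library 1 had the lowest level of the 8 libraries in 21 of 34 members and the lowest table total, at 482580 FPKM. Wild-type library 4 had the highest level in 14 of 34 members. Without it 27 members were below 0, with a median over all members of -0.061.

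The members with the lowest p-values were 2 base subunits and a lid subunit, all at a lower level in the knockout. Psmd4, the ubiquitin receptor, had 126, 124, 127 and 127 FPKM in wild type and 109, 109.5, 110.1 and 117 FPKM in the knockout, -0.18 on the log2 scale (SE 0.04, adjusted p = 0.0585). Psmd7 had 122, 124, 138 and 135 FPKM in wild type and 104, 108.5, 109 and 118 FPKM in the knockout (-0.24, SE 0.06, adjusted p = 0.0669). Psmd1 had 90.9, 85.4, 91.2 and 91.2 FPKM in wild type and 77.9, 75.2, 76.1 and 84.3 FPKM in the knockout (-0.19, SE 0.05, adjusted p = 0.0707). In all 3 genes the groups did not overlap and knockout library 4 was the knockout library closest to wild type. Without that library they passed, with adjusted p = 0.0387 for Psmd4, 0.0461 for Psmd7 and 0.0395 for Psmd1. Calls over all tested genes then also rose, to 414 in place of 243.

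Psmd8 was the only member with a higher level in the knockout without overlap. Wild-type libraries had 271, 278, 189 and 202.5 FPKM and knockout libraries 319, 320.4, 315 and 293 FPKM, 0.43 on the log2 scale (SE 0.12, 95% interval 0.16 to 0.70, adjusted p = 0.0910). The wild-type libraries were split, with 3 and 4 far below 1 and 2. Psma7 showed a like split, at 221, 214, 173 and 190 FPKM in wild type and 179, 199, 195 and 217.5 FPKM in the knockout, and had a log2 fold change of -0.011. Psmb5 was higher at 0.16 (adjusted p = 0.166), with 146, 150, 129 and 135 FPKM in wild type and 162, 160, 153 and 149 FPKM in the knockout, and its groups overlapped. Wild-type libraries 3 and 4 thus lay below 1 and 2 for Psmb5 as well. They lay above 1 and 2 for Psmd7, Psmd3 and Psma3, among others, so the split also enters lower values. Psmb5 lies on chromosome 14 with Psmc6 and Psmd6, and the 355 tested genes of that chromosome had a median log2 fold change of 0.16, the highest of the chromosome medians. The part of that shift in their values was not tested. Psmc6 was at -0.010 and Psmd6 at 0.060.

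Groups of 8 members were lower without overlap in the knockout, beside 5.32% of tested genes, and 1 was higher, beside 8.53% (13.9% in either direction). The 8 were Psmb3 (-0.16), Psmb7 (-0.13), Psmd1, Psmd3 (-0.17), Psmd4, Psmd7, Psmd11 (-0.13) and Psmd12 (-0.10). All 7 alpha ring genes were below 0, from -0.15 (Psma5) to -0.011 (Psma7), and so were all 6 base ATPases, from -0.11 (Psmc2) to -0.010 (Psmc6). Of the beta subunits Psmb4 was at -0.11, Psmb2 at -0.059, Psmb1 at -0.054 and Psmb6 at -0.033. Psmd2 was at -0.081, and in the lid Psmd14 was at -0.083 and Psmd13 at -0.012. The chaperones were at -0.00096 (Psmd5), 0.022 (Psmd9) and -0.080 (Psmd10). Over all members the 95% intervals reached from -0.37 (Psmd7) to 0.70 (Psmd8), and apart from Psmd8 no upper limit was above 0.29 (Psmb5).

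Set side by side, 19 of 34 members had fold changes of opposite sign in the lines, 14 were below 0 in both and 1, Psmd6, was above 0 in both. Of the 11 members called in MC38, 5 had the opposite sign in B16-F10. The 3 leading falls of MC38 were at -0.11 (Psmc2), -0.083 (Psmd14) and -0.00096 (Psmd5) in B16-F10, where none passed. The difference between the lines was not tested, since agent, cell line and table differ together.

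Other genes of the ubiquitin-proteasome system were read from the same fits, and the count of each list stands beside 23.9% of tested genes called higher and 23.6% lower in MC38, and 1.33% and 0.899% in B16-F10. List medians in MC38 stand beside -0.0088 over all tested genes. In MC38 all 3 immunoproteasome subunits, catalytic subunits that replace Psmb5, Psmb6 and Psmb7 after interferon, rose. Psmb8 had 90.2, 93.7, 85 and 92.1 FPKM in wild type and 110, 104.5 and 117 FPKM in overexpressing cells (0.29, adjusted p = 6.47e-04). Psmb9 had 8.12, 10.3, 11.1 and 9.13 FPKM against 14.1, 13.7 and 14.6 FPKM (0.51, adjusted p = 8.05e-04), and Psmb10 rose by 0.30 (adjusted p = 0.0111, and 0.0636 with no filter on low values). For all 3 genes the groups did not overlap. In B16-F10 Psmb8 was at most 0.0125 FPKM and Psmb9 at most 0.424 FPKM, both under the minimum for testing. Psmb10 was at 12.9 and 10.3 FPKM (-0.30, adjusted p = 0.0588).

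The list of activators that cap the core in place of the regulatory particle, with the inhibitor Psmf1, had 3 of 5 genes higher and 1 lower in MC38 (median log2 fold change 0.23). Psmf1 was at -0.16 (adjusted p = 0.0503) and is named after its value was seen. The activator subunit Psme1 rose from 91.8 ± 2.20 to 119 ± 2.11 FPKM (0.38, adjusted p = 8.49e-06), its partner Psme2 by 0.23 and the large activator Psme4 by 0.23. In B16-F10 none of the 5 passed, with Psme3 at -0.049 and Psme1 at 0.23 (adjusted p = 0.146, and 0.0359 without knockout library 4). Psme2, the partner of Psme1, was higher there without overlap, at 0.31 (adjusted p = 0.0585). Psme4 (-0.017) and Psmf1 (-0.12) were below 0 in that line. These 3 values are given after they were seen. Chaperones of core assembly had 0 of 5 higher and 3 lower in MC38 (median -0.17), Psmg3 (-0.35), Psmg1 (-0.20) and Psmg2 (-0.17). The Psmg1 call was lost without overexpressing library 1 (adjusted p = 0.0645) or 2 (0.0853) or wild-type library 3 (0.0505). None of the 5 passed in B16-F10, with Pomp, the maturation factor of the core, at 0.027 and Psmg3 at 0.066.

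Other regulatory particle and assembly genes had 2 of 4 higher and 1 lower in MC38 (median -0.012). Ecpas, a proteasome-binding scaffold, rose by 0.19, the thioredoxin-like Txnl1 by 0.10, and the small lid subunit Sem1 fell by 0.14. The Sem1 call was lost without overexpressing library 1 (adjusted p = 0.0855). That of Txnl1 was lost without overexpressing library 1 (0.0841), 2 (0.0507) or 3 (0.103) or wild-type library 2 (0.0610) or 3 (0.0724). In B16-F10 none of the 4 passed, with Sem1 at 0.13 and the ubiquitin receptor Adrm1 at -0.15. Ubiquitin enzymes and shuttle proteins that dock on proteasomes had 3 of 10 higher and 3 lower in MC38 (median -0.032), among them the shuttle Ubqln2 (0.27) and the ligase Ube3c (-0.24). None of these 10 passed in B16-F10, with Rad23b at -0.068 and Ubqln4 at -0.096.

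Genes for ubiquitin and its activating enzymes had 0 of 6 higher and 2 lower in MC38 (median -0.081), including Rps27a, a fusion of ubiquitin with a ribosomal protein (-0.22). In B16-F10 none of the 6 passed, with Rps27a at -0.18. The p97 segregase Vcp, which pulls ubiquitinated proteins out of complexes, rose in MC38 from 235 ± 4.44 to 282 ± 6.47 FPKM (0.26, adjusted p = 1.03e-04). Of this list of 8 genes 2 rose and 3 fell (median -0.0077), including the cofactors Faf1 (-0.25) and Ubxn1 (-0.15). None of the 8 passed in B16-F10, with Vcp at -0.14 and Nsfl1c at -0.17.

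Among 6 regulators of the Nfe2l1 pathway 2 rose and 3 fell in MC38 (median -0.14). Nfe2l1 itself stood at 142 ± 5.61 FPKM in wild type and 113.5 ± 3.22 FPKM in overexpressing cells, a fall of 0.32 (SE 0.04, adjusted p = 8.58e-05). Ngly1, the glycanase that processes the Nfe2l1 protein, rose from 3.99 ± 0.427 to 5.96 ± 0.186 FPKM (0.48, adjusted p = 4.52e-04), and Sel1l, a component of the ubiquitin ligase complex that turns Nfe2l1 over, fell by 0.28. Syvn1, of the same list, went the other way and rose by 0.26 (adjusted p = 0.00278) without overlap. It is named after its value was seen. In B16-F10 Ngly1 alone passed, at 8.27 ± 0.393 and 10.6 ± 0.640 FPKM (0.33, adjusted p = 0.0336). That call was lost without knockout library 1 (0.101), 2 (0.130) or 3 (0.134) and without wild-type library 2 (0.0580), 3 (0.0708) or 4 (0.0851), and with no filter on low values (0.0595). Nfe2l1 in that line was at 53.8 and 61.4 FPKM (0.19, adjusted p = 0.0811). It was named there because it heads the list, after its values had been seen.

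**Figure D5:**
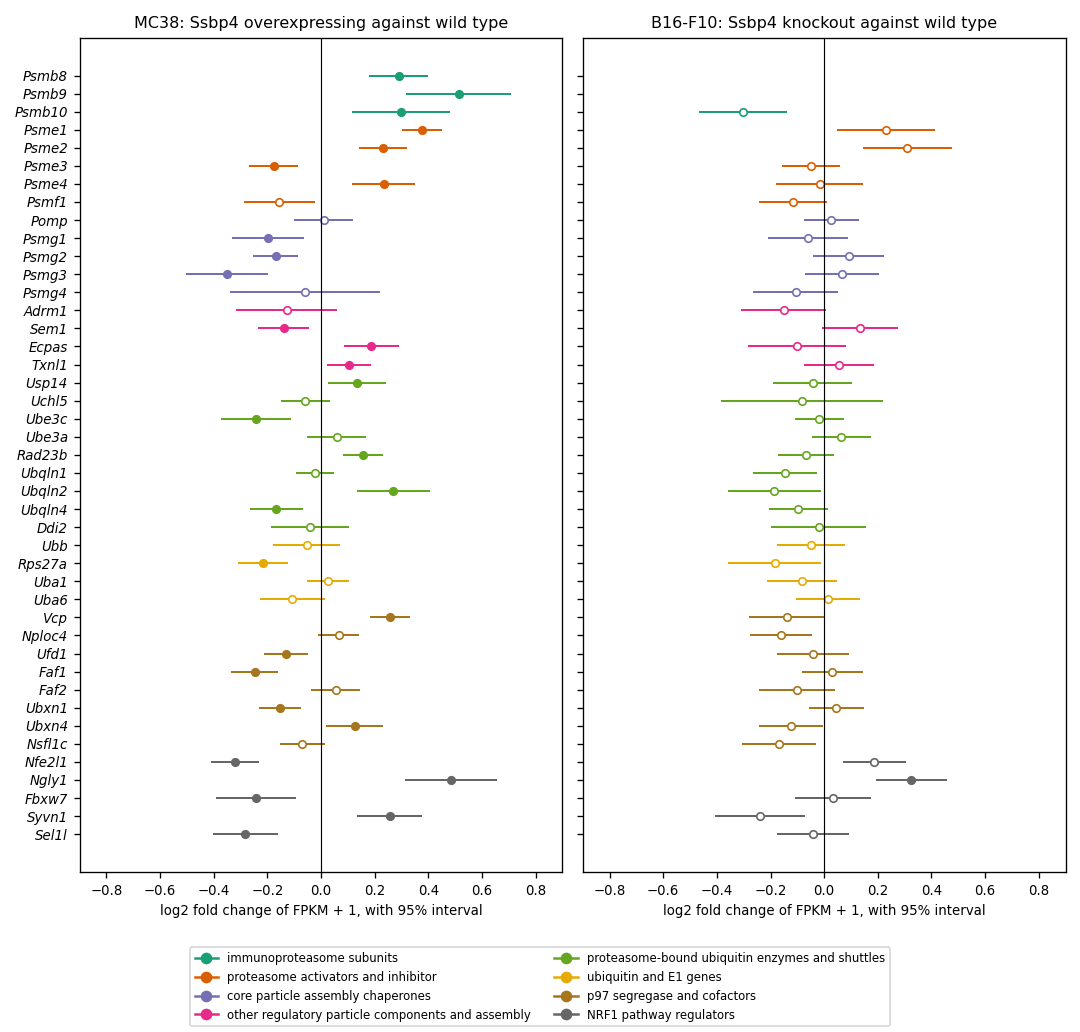
Fitted log2 fold change of FPKM + 1 with its 95% interval for other genes of the ubiquitin-proteasome system named or counted in the text, with some listed genes left out, coloured by list, in MC38 (left) and B16-F10 (right). Filled circles passed an adjusted p of 0.05 and open circles did not; genes without a circle were below the minimum in that line. In MC38 the immunoproteasome subunits Psmb8, Psmb9 and Psmb10 lie to the right of 0, and in B16-F10 the only filled circle is Ngly1.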

How the data were processed

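Per the labels' protocols, libraries were made from polyadenylated RNA with a stranded kit. For each line the authors deposited a table of FPKM with 1 entry per gene symbol, covering 15 libraries in all. The submitters' processing notes name GRCm39 and DESeq2 without versions or roles, and for aligner, counter and annotation the entry is: not given in the sources used here. Columns were matched to samples by label, with 0 left unmatched. Pseudogene entries of member genes stayed at or below 0.273 FPKM, but how the authors assigned reads shared with them is not known.

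The test was limma 3.58.1 with a mean-variance trend (R 4.3.3) on log2(FPKM + 1), for genes averaging at least 1 FPKM in the line, each line alone, with Benjamini-Hochberg adjustment over all tested genes and a threshold of 0.05. Fold changes on this scale understate changes of low genes. The fit was tested on simulated data. Alternatives changed the pseudocount (0.1), the filter (0.1, 5 or none), the scaling, the variance prior, library weights and a replicate block, and left out each library. Leaving the 3 assembly chaperones out of the regulatory particle was added after seeing the data.

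Depth came from low FPKM of single-transcript genes, of which 84.7 to 88.5% lay within 0.1 of a whole fragment, with lengths and chromosomes from GENCODE M21. This is too few for count models. Python 3.11.15 and matplotlib 3.10.9 made the figures. Members and lists were chosen with earlier results of these data known. The text names Ssbp4, every member and, from each other list, up to 3 called genes with the largest changes and no overlap, or up to 2 of the most abundant where none was called. Psmb8, Psmb9 and Psmb10 are always named. Some genes taken by this rule are not reported here, and list counts keep them. Paaf1 was not analysed here.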

Additional observations from a re-analysis of the deposited data

Results flagged for a closer look

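A library lay far from the 3 others of its group in 17 of 169 groups of 4 libraries examined (by Dixon's test of the gap to the nearest library over the group's range, at the 95% level), where chance flags about 1 in 20. Of these, 8 were knockout B16-F10 groups, 5 wild-type B16-F10 groups and 4 wild-type MC38 groups.

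Among members, knockout B16-F10 library 1 was lowest for Psmd12 (65.8 FPKM, others 70.2 to 70.7), Psmd14 (71.2, others 82.3 to 83.6) and Psmd5 (12.5, others from 13.97), and knockout library 4 was highest for Psmd4 (117, others 109 to 110.1). Wild-type B16-F10 library 2 was lowest for Psmd1 (85.4, others 90.9 to 91.2). In wild-type MC38, library 3 was highest for Psma1 (157, others 151 to 152), library 1 highest for Psma5 (212.0, others 200.1 to 201) and library 4 lowest for Psmc5 (162, others 171 to 171).

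Among other genes, knockout B16-F10 library 4 was highest for Adrm1 (100.2 FPKM, others 88.0 to 89.8) and Vcp (307, others 260 to 266) and lowest for Pomp (99.1, others 100.6 to 100.8). Wild-type B16-F10 library 1 was lowest for Psme1 (24.7, others 26.3 to 26.6) and Ubqln4 (55.8, others 57.8 to 58.2). Values near 0 were set apart for Psmb8 in wild-type library 1 (0.0125, others listed at 0) and for Psmb9 in wild-type library 4 (0.424, others at most 0.0705) and knockout library 1 (0.251, others at most 0.0859). Ssbp4 in wild-type MC38 library 1 was at 13.2 FPKM (others 17.0 to 17.6).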

How the results depend on the processing

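Replicate numbers were not used as pairs in the main fit. Each library's deviations from its group mean, over genes, were correlated between the groups of a line. Same-numbered libraries gave -0.29, -0.066 and -0.074 in MC38 and -0.11, -0.18, 0.17 and -0.30 in B16-F10. Libraries of unlike number gave -0.20 to 0.26 in MC38 and -0.27 to 0.29 in B16-F10. Deviations within a group sum to 0, so with groups this small the values cannot decide whether samples were paired. With the replicate block 2 members were higher and 3 lower in MC38 (core lower 0, regulatory higher 1), all 5 being among the 11 called without it (Psma2, Psmd12, Psmc2, Psmd14 and Psmd5), and 0 were called in B16-F10. Psmc1 and Psma7, called in MC38 whichever library was left out, did not pass under the block (adjusted p = 0.0604 and 0.0813). Psma4 (-0.0093) and Psmc5 (-0.013) changed sign in MC38 under the block. No overexpressing library is numbered 4, so the block leaves wild-type library 4 out of the MC38 comparison. Its fold changes there are the same as those without that library. Beyond the members, the block ended the calls of Sem1 (adjusted p = 0.120), Txnl1 (0.0854) and Ubxn1 (0.0565) in MC38 and of Ngly1 (0.129) and Ssbp4 (0.0890) in B16-F10, and Ngly1 was also lost there without a filter (0.0595). Without a filter Psmb5, Psmc6, Psmd1, Psmb10 and Psmg1 no longer passed in MC38 (adjusted p = 0.135, 0.0542, 0.0629, 0.0636 and 0.0703), nor did Psmb5 with a filter of 0.1 FPKM (0.0548). The count of lower core members in MC38 was 1 with a filter of 0.1 FPKM, without a filter and with a common total. A common total gave medians of 0.011 (core) and 0.033 (regulatory) in MC38, beside 0.015 over all tested genes. It turned Psmb1 (0.0088), Psmb2 (0.014) and Psmb3 (0.0085) above 0. It also ended the calls of Psmb5 (adjusted p = 0.0778), Psmc6 (0.114) and Sem1 (0.0519) and added Psmd13 (0.0301). In B16-F10 it turned Psma7 (0.0070), Psmc6 (0.0077), Psmd13 (0.0053) and Psmd5 (0.016), and estimated library weights turned Psmc6 (0.049) and Psmd5 (0.024). With those weights 1 member was higher and 3 lower in B16-F10, all regulatory (Psmd8 higher, adjusted p = 0.0443, and Psmd1, Psmd4 and Psmd7 lower), out of 776 genes called in place of 243. Beyond the members, Psmb10 was then called lower (adjusted p = 0.0255) and Psme1 higher (0.0408) in that line. The cause was not tested.

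Leaving out each library in turn gave 3 to 5 higher and 4 to 6 lower members in MC38 (core lower 1 to 2, regulatory higher 2 to 4), a core median of -0.030 to 0.0079 and a core minus regulatory difference of -0.037 to 0.0015. In B16-F10 it gave 0 to 3 lower members, all regulatory (0 to 3). Signs turned only for members not called. In MC38 the ranges were -0.026 to 0.022 (Psma1), -0.020 to 0.038 (Psma4), -0.025 to 0.033 (Psma5), -0.040 to 0.0092 (Psmb2), -0.052 to 0.0066 (Psmb3), -0.013 to 0.032 (Psmc5), -0.013 to 0.022 (Psmd2) and -0.0021 to 0.038 (Psmd7). In B16-F10 they were -0.046 to 0.015 (Psma4), -0.076 to 0.041 (Psma7), -0.058 to 0.012 (Psmb6), -0.060 to 0.0089 (Psmc4), -0.039 to 0.038 (Psmc6), -0.041 to 0.012 (Psmd13), -0.015 to 0.037 (Psmd5) and -0.022 to 0.060 (Psmd9).

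The small number of libraries limits how small a difference can be seen. What depth limits was not tested.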
